A study of Mus musculus with 18 samples.

Results

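The clustered protocadherin genes are 58 of the 35856 genes in the deposited annotation. They were taken by name, as the *Pcdha*, *Pcdhb*, *Pcdhga*, *Pcdhgb* and *Pcdhgc* genes on chromosome 18. The rule itself uses no measured value, but it was chosen with earlier results of these data known. They form 3 neighbouring clusters, with 14 genes in alpha, 22 in beta and 22 in gamma, all transcribed in the same direction. H3K9me3, trimethylation of lysine 9 of histone H3, was mapped by ChIP-seq in E14TG2a mouse embryonic stem cells (mESCs) grown in serum with LIF. There were 3 genotypes with 2 libraries each, labelled WT, UHRF1KO and DHX9KO, and called here wild-type, *Uhrf1* KO and *Dhx9* KO. The *Uhrf1* KO lines were clones made with CRISPR-Cas9 in mESCs that carry an inducible silencing reporter. The paper names the wild-type cells compared with them as cells with the same reporter. How the *Dhx9* KO line was made is not given in the sources used here. The labels do not say whether the libraries of a genotype came from separate clones or cultures, so differences were judged only against the spread between these libraries. The knockouts could not be checked in these data, because H3K9me3 peaks do not measure transcripts, and the first exons of *Uhrf1* and *Dhx9* had no peak in any library.

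Clustered protocadherins are cadherin-like adhesion proteins of the neuronal surface. Each neuron chooses a few of them, and the combination gives the cell an identity that its own branches recognise. In the alpha and gamma clusters every gene has its own long first exon, the variable exon, which carries its own promoter and codes for the outer and membrane-spanning parts of the protein, and this exon is spliced to a shared set of constant exons. Beta genes consist of 1 exon each. Promoter choice is known to depend on CTCF, cohesin and DNA methylation, and H3K9 methylation by SETDB1 is among the marks known to keep variable exons silent. UHRF1 brings the methyltransferase DNMT1 to newly replicated DNA, and DHX9 is an RNA and DNA helicase.

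Each library had its own list of called peaks, and a gene counts as called here when any peak overlaps its first exon. The first exons of the 58 genes are between 2319 and 5271 bp long. Their median GC content was 53.7% in alpha, 47.5% in beta and 52.5% in gamma, against 41.4% over chromosome 18. The median number of CpG sites per kb was 47.1, 22.7 and 38.8 in the same order, against 8.25 over the chromosome. First exons are alike between neighbours, but at most 8.51% of the 150-base stretches of any first exon in alpha, 0.276% in beta and 6.35% in gamma occur again within the locus.

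The 6 lists held between 70195 and 125453 peaks, with 6703081 to 20875020 ChIP reads in them. *Uhrf1* KO replicate 1 had the shortest list and the fewest reads. Over the annotated genes outside chromosome 2, a peak lay on the first exon of 24.7% and 23.7% of genes in wild-type cells, 7.48% and 16.9% in *Uhrf1* KO cells and 23.8% and 19.1% in *Dhx9* KO cells (replicates 1 and 2). Among the 2168 genes whose first exon is 2 kb or longer, as it is in all clustered protocadherins, these shares were 38.3% and 37.6%, 14.3% and 26.3%, and 37.3% and 30.3%. The *Uhrf1* KO lists were called against other background reads than the wild-type and *Dhx9* KO lists, so that in the comparison of *Uhrf1* KO with wild-type cells the genotype and the background cannot be told apart.

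In wild-type cells H3K9me3 covered most clustered protocadherin first exons. Of the 58 genes, 47 were called in replicate 1 and 45 in replicate 2, which is 81.0% and 77.6%, and 41 were called in both. In *Uhrf1* KO cells 8 and 16 genes were called, or 13.8% and 27.6%, which is close to the shares of all genes with long first exons in the same libraries. *Dhx9* KO replicate 1 had 37 genes called, or 63.8%, and *Dhx9* KO replicate 2 had 17, or 29.3%, the latter close to the share of long first exons in its library. The clusters differed in how much of this mark they had and how much of it was seen in the knockouts.

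**Figure D1:**
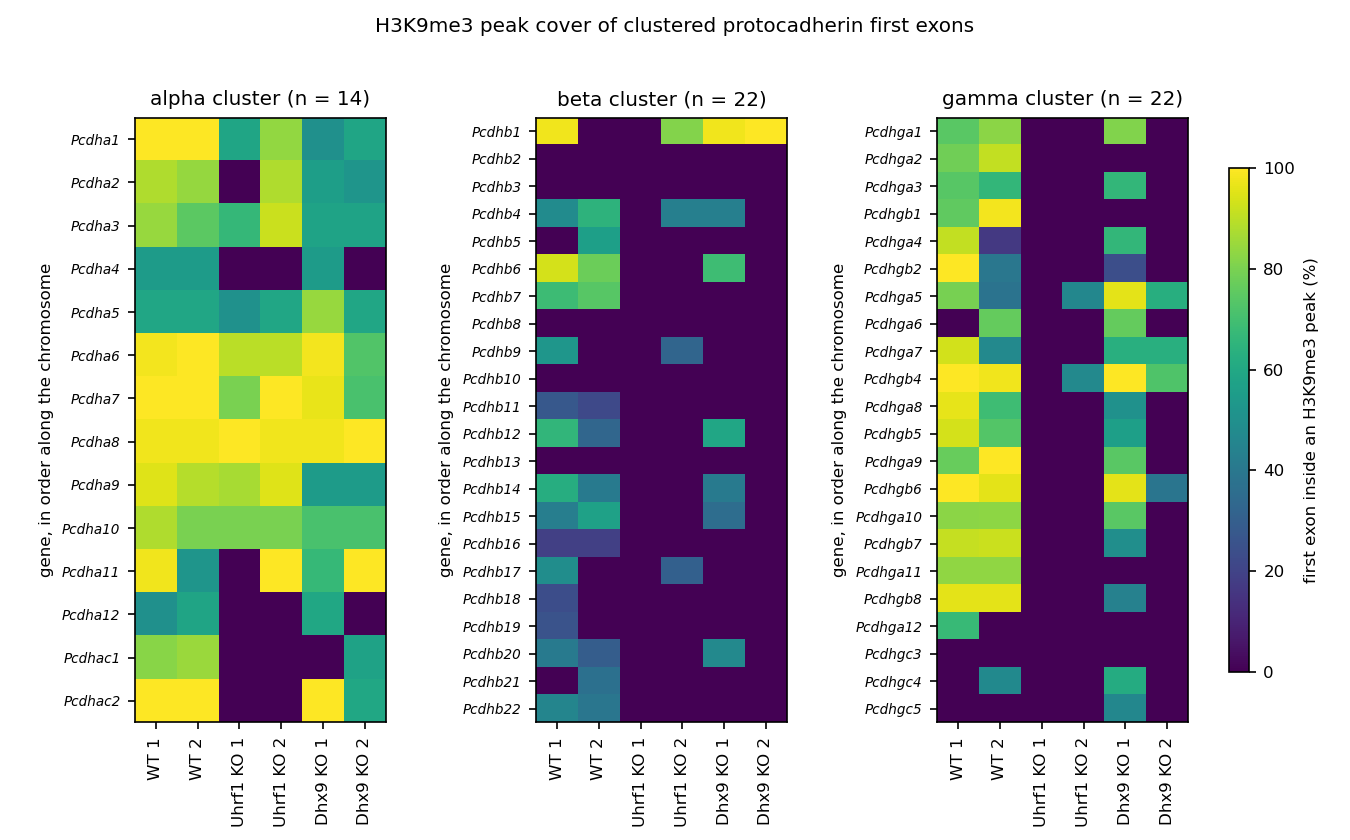
Share of each first exon that lies inside an H3K9me3 peak, in percent (colour), for the 58 genes in chromosomal order (rows) and the 6 libraries (columns). All alpha genes are covered in both wild-type libraries and 8 of them in every library, while beta and gamma columns are empty in *Uhrf1* KO replicate 1.

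All 14 alpha genes were called in both wild-type libraries. The log2 fold of a peak, which is the authors' ratio of ChIP to background reads scaled to library size, had a median of 1.74 and 1.97 over alpha first exons. These peaks stood at the median 81.8th and 86.4th percentile of their lists. In gamma 18 and 19 of 22 genes were called, with median log2 folds of 1.14 and 1.11 at the 55.9th and 53.4th percentile. Beta had the weakest and most broken pattern, with 15 and 12 of 22 genes called, median log2 folds of 0.74 and 0.85, and percentiles of 24.7 and 33.3. The peaks over first exons held 93 to 345 ChIP reads in alpha, 51 to 123 in beta and 40 to 304 in gamma in these 2 libraries. *Pcdhb2*, *Pcdhb3*, *Pcdhb8*, *Pcdhb10* and *Pcdhb13* in beta and *Pcdhgc3* in gamma were called in no library.

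**Figure D2:**
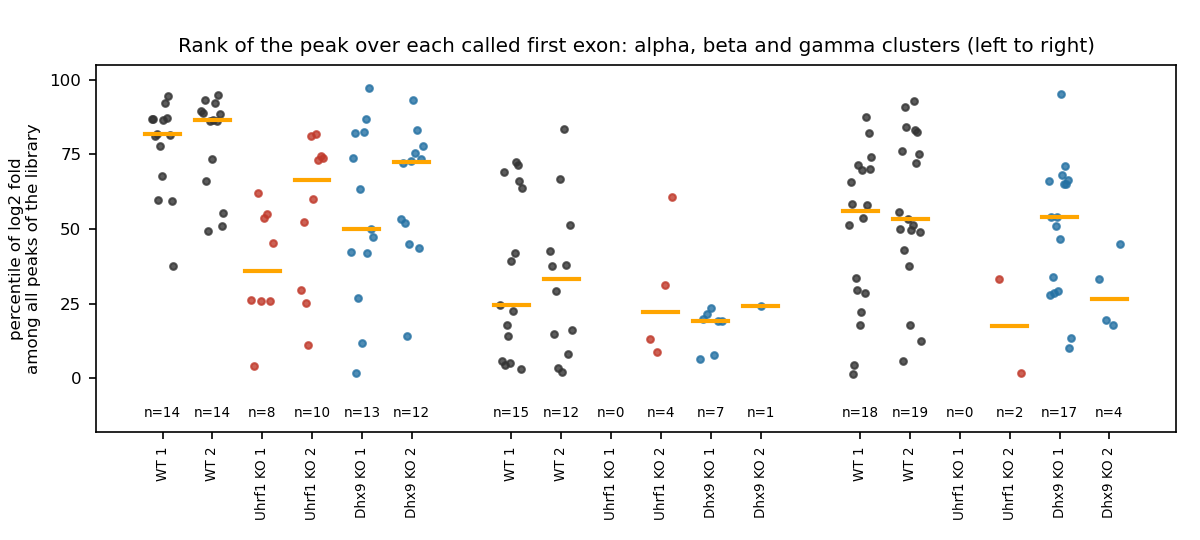
Percentile of the log2 fold of the peak over each called first exon among all peaks of the same library (y axis), by cluster and library; points are genes, orange lines are medians and n is the number of genes called. Wild-type alpha peaks have medians of 81.8 and 86.4, above those of gamma and beta, and beta has no point in *Uhrf1* KO replicate 1.

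The peaks lay inside the first exons rather than across their starts. In wild-type cells the share of genes with a peak was highest 1200 bp after the start of the first exon in alpha, where it reached 100%, 1600 bp after it in beta, at 61.4%, and 1800 bp after it in gamma, at 84.1% (mean of the 2 libraries). At the start itself these shares were 39.3%, 6.82% and 25%. First exons make up 12.9% of the alpha cluster (its transcripts and 2 kb on each side) and held 57.6% and 59.7% of its called length in wild-type cells. In gamma they make up 30.2% and held 77.1% and 73.6%. Exons 2 and 3, which all alpha or all gamma genes share, were free of peaks in every library, as was the last alpha exon. The last gamma exon was partly covered in 3 libraries, by 698 and 298 bp in wild-type cells and by 698 bp in *Dhx9* KO replicate 1.

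**Figure D3:**
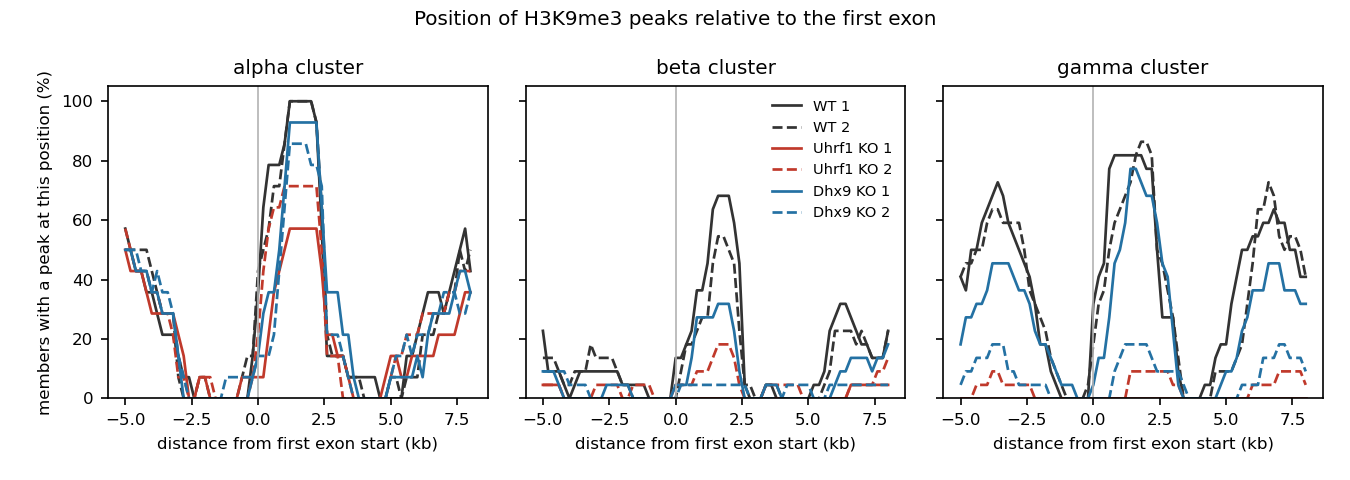
Share of genes with a peak (y axis, percent) against the distance from the start of the first exon (x axis, kb), by cluster; solid lines are replicate 1 and dashed lines replicate 2. Wild-type maxima lie 1200 to 1800 bp inside the exon, and first exons of neighbouring genes also fall near the edges of each panel.

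Within alpha, *Pcdha8*, *Pcdha6* and *Pcdha11* had the highest mean log2 fold in wild-type cells. For *Pcdha8* the log2 fold was 2.49 and 2.55 for wild-type, 1.12 and 1.98 for *Uhrf1* KO and 2.18 and 1.62 for *Dhx9* KO libraries, with 98.0% of the first exon or more covered in every library. *Pcdha6* had log2 folds of 2.27 and 2.31, 1.63 and 2.26, and 1.56 and 2.04 in the same order. Both genes kept a peak in all 6 libraries, but in *Uhrf1* KO replicate 1 these peaks stood only at the 25.7th percentile of the list for *Pcdha8* and the 53.6th for *Pcdha6*, against 92.1 or higher in wild-type cells. *Pcdha11* was called in 5 libraries, with 97.9% and 52.3% of its first exon covered in wild-type cells, 0% and 100% in *Uhrf1* KO cells and 66.8% and 100% in *Dhx9* KO cells. *Pcdha1*, the first gene of the cluster, was covered over 100% in both wild-type libraries, 58.6% and 83.8% in *Uhrf1* KO cells and 50.3% and 58.6% in *Dhx9* KO cells. The ChIP reads of its peak numbered 278 and 267 for wild-type, 42 and 93 for *Uhrf1* KO and 70 and 85 for *Dhx9* KO cells, so that each knockout lay below both wild-type libraries while the 2 knockouts overlapped. These reads are not scaled to depth, and the peaks in the knockouts were also narrower.

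The comparison of *Uhrf1* KO with wild-type cells asks where H3K9me3 peaks were called in one genotype and not in the other. DNA methylation was not measured in these libraries. A gene was counted as lost if its first exon had a peak in each wild-type library but in no library of the knockout, and as gained in the reverse case. Of the 41 genes called in both wild-type libraries, 28 were lost in *Uhrf1* KO cells, which is 68.3%, against 35.5% of the 6438 genes so called over the annotation and 34.4% of those with a first exon of 2 kb or longer. The losses were 15 of 17 in gamma (88.2%), 9 of 10 in beta (90%) and 4 of 14 in alpha (28.6%). None was gained, against 0.717% of all genes without a wild-type peak, but only 7 protocadherins lacked a peak in both wild-type libraries. Leaving out the shallow *Uhrf1* KO replicate 1 also gave 28 lost genes, against 36.6% of all genes. Without *Uhrf1* KO replicate 2 it was 33 of 41, or 80.5%, against 70.7% of all genes, so that the distance from the background was smaller when the shallow library stood alone. The number lost in each cluster depended on the peak filter. At a false discovery rate of at most 1e-10 the losses were 10 in gamma, 1 in beta and 7 in alpha. These were 72% of the 25 genes then called in both wild-type libraries, against 41.6% of all genes. The 25 genes were not counted by cluster, so that these losses cannot be set against the shares per cluster above. The loss of a peak shows that no peak was called, not that the mark was absent, and beta and gamma peaks ranked lower in wild-type cells than alpha peaks.

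The alpha genes that were lost lie singly or at the end of the cluster. They were *Pcdha4*, *Pcdha12* and both C-type genes, *Pcdhac1* and *Pcdhac2*, which stand apart at the downstream end of the cluster and are known to be used more constitutively than the others. *Pcdhac1* was covered over 82.1% and 84.8% in wild-type cells, 0% in both *Uhrf1* KO libraries, and 0% and 57.5% in *Dhx9* KO cells. *Pcdhac2* was covered over 100% in both wild-type libraries, 0% in both *Uhrf1* KO libraries, and 100% and 59.7% in *Dhx9* KO cells. For *Pcdha4* the cover was 54.8% in both wild-type libraries and in *Dhx9* KO replicate 1, and 0% in the other 3 libraries. *Pcdha12* was likewise uncalled in both *Uhrf1* KO libraries and in *Dhx9* KO replicate 2. The mean wild-type log2 fold of the 4 lost alpha genes ranged from 1.02 to 1.54, and that of the other 10 from 1.12 to 2.52. Their CpG density was 26.7 per kb in *Pcdhac1*, 36.3 in *Pcdhac2*, 47.1 in *Pcdha4* and 54.7 in *Pcdha12*, the lowest 2 and the highest of the cluster among them, and the other 10 had a median of 47.3 per kb. In gamma the medians were 39.5 per kb in the 15 lost genes and 38.9 in the 2 others.

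In gamma only *Pcdhga5* and *Pcdhgb4* were called in a *Uhrf1* KO library. *Pcdhgb4* had the highest mean wild-type log2 fold of the cluster, from 2.00 and 1.83, with 304 and 238 ChIP reads, and had no peak in *Uhrf1* KO replicate 1 and a log2 fold of 0.31 with 60 reads in replicate 2. *Pcdhgb6* followed with 1.76 and 1.80 in wild-type cells and was called in neither *Uhrf1* KO library. *Pcdhga5* had 1.42 and 1.86 in wild-type cells and 0.97 in *Uhrf1* KO replicate 2 alone. *Pcdhgb2*, *Pcdhga4*, *Pcdhgb7* and *Pcdhga11* were lost with mean wild-type log2 folds of 1.59, 1.51, 1.47 and 1.38. The wild-type libraries differed for *Pcdhgb2* (0.79 and 2.39) and *Pcdhga4* (0.80 and 2.22). For *Pcdhga4* the higher value came from a peak of 400 bp with 40 ChIP and 10 background reads. *Pcdhga1*, the first gene of the cluster, was also lost, with 79 and 93 ChIP reads over 74.3% and 82.6% of its first exon in wild-type cells. The 3 C-type gamma genes had few peaks. *Pcdhgc4* was called in wild-type replicate 2 and *Dhx9* KO replicate 1, over 47.6% and 61.4% of its first exon, and *Pcdhgc5*, the last gene, was called in *Dhx9* KO replicate 1 alone, over 46.3%.

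In beta *Pcdhb22*, the last gene, had the highest wild-type log2 fold, 1.45 and 1.84, with 83 and 86 ChIP reads, and was called in no knockout library of either kind. *Pcdhb9* was called in wild-type replicate 1 with a log2 fold of 1.26 and in *Uhrf1* KO replicate 2 with 1.55. *Pcdhb6* had log2 folds of 1.31 and 1.08 in wild-type cells, no peak in *Uhrf1* KO cells and 0.60 in *Dhx9* KO replicate 1. *Pcdhb12*, *Pcdhb15* and *Pcdhb20* were also lost in *Uhrf1* KO cells and called in *Dhx9* KO replicate 1. *Pcdhb1*, the first gene and one set apart from the rest of its cluster, was the only beta gene called in both *Dhx9* KO libraries. Its cover was 97.8% and 0% for wild-type, 0% and 81.5% for *Uhrf1* KO and 97.8% and 99.9% for *Dhx9* KO libraries, so that its groups overlapped.

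**Figure D4:**
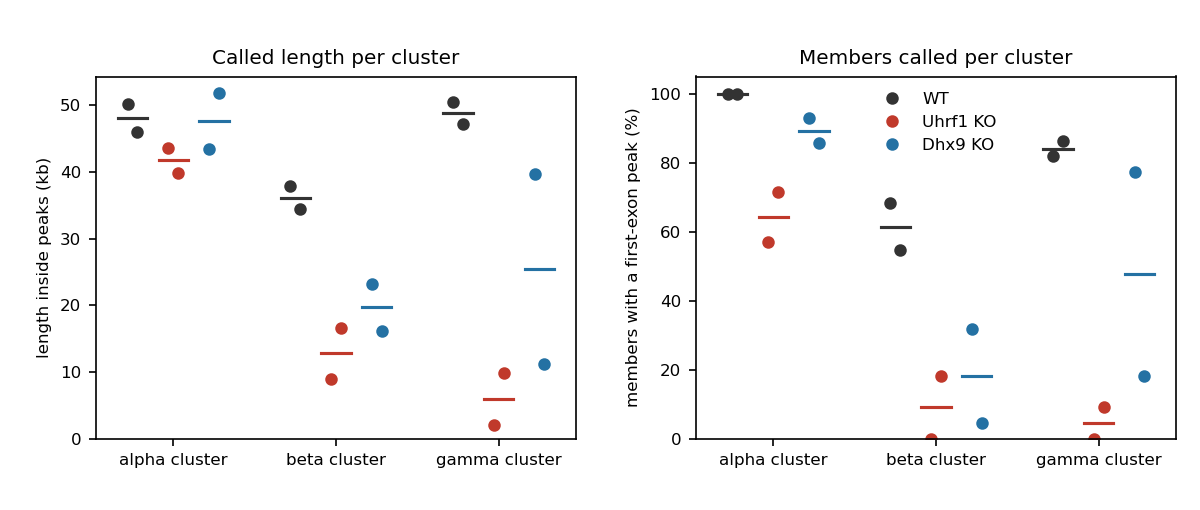
Length inside peaks per cluster (left, kb) and share of genes with a first-exon peak (right, percent) in each library; points are libraries and horizontal lines are means of 2. In gamma the wild-type libraries lie at 50.4 and 47.2 kb and the *Uhrf1* KO libraries at 2.0 and 9.8 kb, while alpha values of all genotypes lie between 39.8 and 51.8 kb.

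Called length, the number of kb of a whole cluster inside peaks, was lowest relative to wild-type in gamma and closest to it in alpha. In gamma it was 50.4 and 47.2 kb in wild-type cells (48.8 ± 2.26 kb, SD, n = 2) against 2.0 and 9.8 kb in *Uhrf1* KO cells (5.9 ± 5.52 kb, n = 2), or 12.1% of wild-type. In beta it was 37.8 and 34.4 kb against 9.0 and 16.6 kb, or 35.5%. In alpha it was 50.2 and 46.0 kb against 43.6 and 39.8 kb, or 86.7%. The groups did not overlap in any cluster, and each two-sided exact permutation test gave p = 0.33, the smallest value that 2 libraries against 2 allow. Over all peaks of the genome the called length was 416 and 401 Mb in wild-type and 203 and 342 Mb in *Uhrf1* KO libraries, also without overlap. A lower called length was thus not particular to the locus. Set against alpha in the same library, gamma had 1.00 and 1.03 times the called length in wild-type cells and 0.0459 and 0.246 times in *Uhrf1* KO cells (exact permutation p = 0.33). Beta had 0.753 and 0.748 times the alpha length in wild-type cells and 0.206 and 0.417 times in *Uhrf1* KO cells (exact permutation p = 0.33). These lengths include peaks off the first exons, which in alpha made up 17.0 and 13.6 kb for wild-type and 25.4 and 16.0 kb for *Uhrf1* KO libraries.

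Each cluster also held peaks that touch no first exon. In gamma they summed to 7.2 and 7.0 kb for wild-type, 2.0 and 6.2 kb for *Uhrf1* KO and 6.6 and 3.4 kb for *Dhx9* KO libraries. These gamma peaks were weak, with median log2 folds of 0.51 and 0.44 in wild-type cells. The median share of a gamma peak marked as repeats was 20.5% to 42.8% per library. In beta these summed to 13.0 and 16.6 kb for wild-type, 9.0 and 10.8 kb for *Uhrf1* KO and 11.6 and 13.6 kb for *Dhx9* KO libraries, while the called length inside beta first exons was 24.5 and 17.8 kb, 0 and 5.6 kb, and 11.4 and 2.45 kb. Inside alpha first exons the called length was 28.9 and 27.5 kb, 14.6 and 21.2 kb, and 22.9 and 19.6 kb in this order. Neither knockout overlapped with wild-type there. In alpha the peaks off first exons summed to 17.0 and 13.6 kb in wild-type cells, against 25.4 and 16.0 kb with *Uhrf1* knocked out and 14.8 and 27.4 kb with *Dhx9* knocked out, and these groups overlapped. Most of their bases in alpha and beta are marked as repeats in the reference genome, with a median per library between 66.8% and 96.9% of the peak, whereas the median first exon is 1.68% repeat in alpha and 7.78% in beta. In 5 of the 6 libraries the strongest of them in alpha lies between *Pcdha7* and *Pcdha8*, in the pseudogene *Gm36858* of the GENCODE M21 annotation (chromosome 18, 36980057 to 36989575, mm10). The highest log2 fold over *Gm36858* was 3.52 and 3.64 for wild-type, 3.34 and 3.90 for *Uhrf1* KO and 2.69 and 3.04 for *Dhx9* KO libraries, with percentiles of 97.2 to 99.2 in their lists. In *Uhrf1* KO replicate 2 a repeat between *Pcdha12* and *Pcdhac1* was stronger, at 4.74. In beta repeats between *Pcdhb8* and *Pcdhb9* had a peak with a log2 fold of 4.97 in wild-type replicate 1, and the peak of wild-type replicate 2 over the same place had 3.6. At this place the *Uhrf1* KO libraries had 4.00 and 5.63 and the *Dhx9* KO libraries 3.52 and 4.12. A separate peak of 200 bp nearby had 7.03 in wild-type replicate 2, from 28 ChIP reads and 0 background reads. The same 200 bp had 7.66 in *Uhrf1* KO replicate 2, from 64 ChIP reads and 0 background reads.

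**Figure D5:**
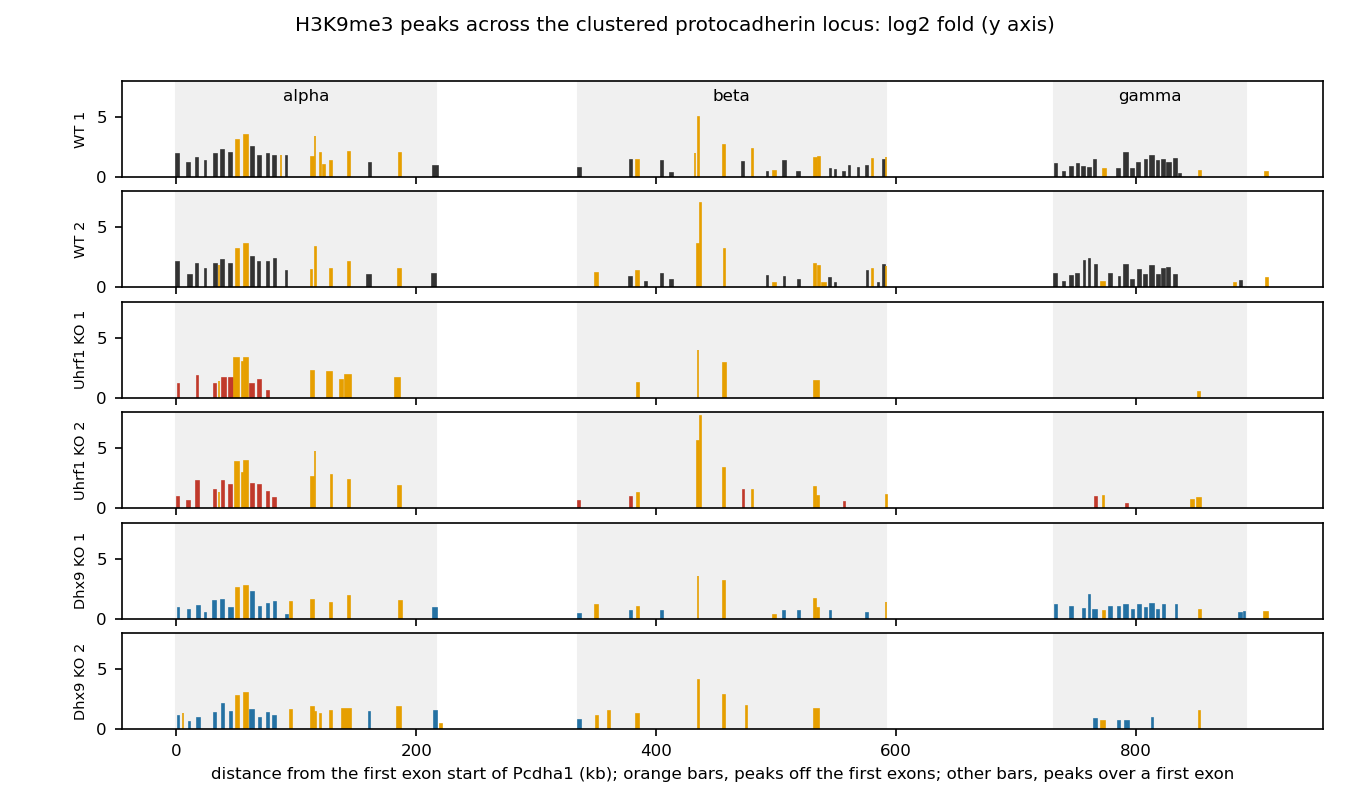
Peaks across the locus in the 6 libraries, as distance from the first exon start of *Pcdha1* (x axis, kb) against log2 fold of ChIP over background (y axis); orange bars are peaks off the first exons, other bars peaks over a first exon, and grey bands the span of each cluster's first exons. Orange bars remain in alpha and beta in every library, while bars over gamma first exons are absent in *Uhrf1* KO replicate 1 and number 2 in replicate 2.

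Read counts could be compared only where a region had a peak in all 4 libraries and each covered at least 80% of it, which held for 3 regions of the locus in *Uhrf1* KO cells, all in alpha. The *Pcdha10* region, in its first exon (chromosome 18, 37005601 to 37007800), held 198 and 192 wild-type ChIP reads, against 36 and 113 of the *Uhrf1* KO libraries. After scaling to the other regions its log2 change was -1.13 (SE 0.20, adjusted p = 0.00396 by the quasi-likelihood test of edgeR, after Benjamini and Hochberg over 2528 regions). The *Pcdha9* region (36998001 to 37000400) had 181 and 196 reads against 46 and 137, a log2 change of -0.87 (SE 0.19, adjusted p = 0.0135 in edgeR). The region in *Gm36858* (36986601 to 36989800) had a log2 change of -0.13 (SE 0.13, adjusted p = 0.578 in edgeR). So 2 of 3 regions were lower, against 5.54% of all regions tested, and none was higher, against 3.2%. The *Pcdha9* call did not hold without wild-type replicate 2 (adjusted p = 0.227, edgeR) or with regions covered over at least 50% (adjusted p = 0.0909, edgeR). Neither call held with all regions called in every library (log2 change -0.69, adjusted p = 0.360 for *Pcdha9* and -0.96, adjusted p = 0.284 for *Pcdha10*, edgeR). The same was so with equal library sizes in place of scaling (log2 changes -1.07 and -1.32, adjusted p = 1 for both, edgeR). With cover of at least 50%, 12 regions could be tested, of which *Pcdha10* and *Pcdha1* were lower (*Pcdha1* log2 change -1.05, SE 0.22, adjusted p = 0.0378, edgeR), and the 2 beta regions among them, both off the first exons, had log2 changes of -0.17 and -0.14 (adjusted p = 0.713 and 0.735, edgeR). No gamma region had a peak in all 4 libraries.

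The comparison of *Dhx9* KO with wild-type cells asks the same for the knockout of the helicase. Of the 41 genes called in both wild-type libraries, 7 were lost in *Dhx9* KO cells, which is 17.1%, against 11.3% over the annotation and 8.75% of genes with a long first exon. They were 4 of 10 in beta, 3 of 17 in gamma and 0 of 14 in alpha. None was gained, against 1.32% of all genes. The lost genes were *Pcdhb7*, *Pcdhb11*, *Pcdhb16* and *Pcdhb22* in beta and *Pcdhga2*, *Pcdhgb1* and *Pcdhga11* in gamma. *Pcdhga2* and *Pcdhgb1*, like *Pcdhb7*, *Pcdhb11* and *Pcdhb16*, were named after their values were seen. At a false discovery rate of at most 1e-10 the losses were 5 in alpha, 1 in beta and 6 in gamma. These were 48% of the 25 genes then called in both wild-type libraries, against 16.6% of all genes. Here too the 25 genes were not counted by cluster.

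The *Dhx9* KO libraries differed from each other, and the count of lost genes rests on replicate 1. Without that library 25 of 41 genes were lost (10 in beta, 13 in gamma and 2 in alpha), or 61.0% against 30.2% of all genes. Without replicate 2 there were 8 of 41, or 19.5% against 18.4% of all genes, which is near the background. Leaving out wild-type replicate 2 gave 12 of 47, or 25.5% against 18.3%. The number gained was 1 of 13 without wild-type replicate 1, or 7.69% against 2.51% of all genes. Without *Dhx9* KO replicate 2 it was 1 of 7, or 14.3% against 5.34% of all genes. In gamma 17 genes were called in replicate 1 and 4 in replicate 2, namely *Pcdhga5*, *Pcdhga7*, *Pcdhgb4* and *Pcdhgb6*. The called length in gamma was 39.6 and 11.2 kb (25.4 ± 20.1 kb, SD, n = 2), or 52.0% of wild-type. In beta it was 23.2 and 16.2 kb (19.7 ± 4.95 kb, n = 2), or 54.6%. Neither group overlapped with wild-type (exact permutation p = 0.33 for each, the smallest possible). In alpha it was 43.4 and 51.8 kb, or 99.0% of wild-type, and the groups overlapped (exact permutation p = 1.00). Of this alpha length, 22.9 and 19.6 kb lay inside first exons, against 28.9 and 27.5 kb in wild-type cells, without overlap. Relative to alpha in the same library, gamma had 0.912 and 0.216 times the called length and beta 0.535 and 0.313 times, below both wild-type libraries in each case (exact permutation p = 0.33). The ChIP reads in all peaks of these libraries were 19761402 and 20491615. The called length of all their peaks was 409 and 399 Mb, against 416 and 401 Mb in wild-type cells, and these groups overlapped.

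For 10 of the 11 alpha genes called in all 4 libraries, the log2 fold of the peak was lower in both *Dhx9* KO libraries than in both wild-type libraries, an order without a test. The wild-type and *Dhx9* KO lists share their background reads, so that their log2 folds have the same reference. Of the 15 protocadherins called in all 4 libraries, 13 had a log2 fold in both *Dhx9* KO libraries below that of both wild-type libraries, against 34.8% of the 4036 genes so called, and none lay above both, against 9.29%. They were 10 of 11 in alpha and 3 of 4 in gamma. The median difference in log2 fold was -0.73 over the 15 genes and -0.12 over all 4036. *Pcdha9* had 1.73 and 2.08 in wild-type and 0.93 in both *Dhx9* KO libraries, and *Pcdha10* had 1.96 and 2.10 against 1.25 and 1.35. The exceptions were *Pcdhac2*, with 0.90 and 1.13 against 0.90 and 1.47, and *Pcdhga7*, with 0.64 and 0.90 against 0.97 and 0.65. Among the 8 genes called in all 4 libraries of the *Uhrf1* KO comparison, all in alpha, 6 lay below both wild-type libraries, against 19.8% of genes so called, and none above, against 37.1%, with the difference in background reads named above. The exceptions were *Pcdha3* and *Pcdha9*. Without *Uhrf1* KO replicate 1 the number below was 10 of 13, against 42.1% of all genes, and 1 lay above, against 41.0%. Without *Dhx9* KO replicate 2 it was 24 of 33 in the other comparison, against 53.5% of all genes, with 4 above, against 22.4%. In gamma the number below was then 8 of 14, which is near the share of all genes. Of the genes named here, *Pcdha3*, *Pcdha9*, *Pcdha10* and *Pcdhga7* were singled out after their values were seen, and this ordering of log2 folds was also set up then.

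In the read-count test of *Dhx9* KO cells no region of the locus passed. The *Pcdha10* region had 109 and 117 ChIP reads against 198 and 192, a log2 change of -0.56 (SE 0.18, adjusted p = 0.195 in edgeR over 4701 regions). The regions in *Gm36858* had log2 changes of -0.40 (SE 0.16, adjusted p = 0.323, edgeR) and -0.50 (SE 0.16, adjusted p = 0.202, edgeR). Over all regions tested 0.553% were lower and 0.0425% higher. With 1 *Dhx9* KO library left out, when the remaining library is assumed to vary like the wild-type group, *Pcdha10* passed in both cases (adjusted p = 0.0296 without replicate 1 and 0.0393 without replicate 2, edgeR). The *Gm36858* region from 36986601 also passed in both cases (adjusted p = 0.0425 and 0.000184, edgeR), and that from 36979801 passed without replicate 1 (adjusted p = 0.0396, edgeR).

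Genes within the locus that are not clustered protocadherins had few marks of their own. *Slc25a2*, *Taf7*, *LOC105246409* and *Gm29994* had no peak on their first exon in any library. *Gm37013*, *Gm38666* and *Gm38667* are transcript models whose first exons contain those of *Pcdha4*, *Pcdha6* and *Pcdha7*, and they carried the same peaks. Of 12 non-clustered protocadherins elsewhere in the genome, 5 were called in both wild-type libraries, namely *Pcdh7*, *Pcdh8*, *Pcdh12*, *Pcdh17* and *Pcdh18*. Of these 5, *Pcdh8* and *Pcdh12* were lost in *Uhrf1* KO cells and 0 in *Dhx9* KO cells. Of all genes called in both wild-type libraries, 35.5% and 11.3% were lost in the same order. Among the 5, the highest wild-type log2 fold was 1.52, for *Pcdh18*. Of 20 genes whose products act on protocadherin promoters or in silencing, 18 lie outside chromosome 2, and of these *Dnmt3a* and *Dnmt3l*, which act in new DNA methylation, were called in both wild-type libraries and lost in *Uhrf1* KO cells. Over all genes 24.7% and 23.7% were called in the 2 wild-type libraries, and 35.5% of those called in both were lost in *Uhrf1* KO cells. Among 6 pluripotency genes, which mark mESCs when expressed, *Esrrb* was called in every library and the other 5 in none, a pattern that does not test the cell type.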

How the data were processed

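H3K9me3 ChIP-seq peak lists of 6 mESC libraries (wild-type, *Uhrf1* KO and *Dhx9* KO, 2 each) were used; the other 12 samples were not analysed here. Per the labels' processing notes and the methods, the authors aligned reads to mm10 with Bowtie2 2.3.4.3, subsampled them with SAMtools and called peaks per library with epic2 in bins of 200 bp, keeping duplicates (the notes list SICER with version 0.0.51). For each peak the deposited lists hold raw ChIP and background counts. The authors' caller also gave a p-value, an adjusted value (false discovery rate) and a log2 fold of ChIP over background relative to library size. The score of the authors' caller, a capped multiple of that log2 fold, was not used. The methods name wild-type input as background. Over peaks with identical limits, background reads matched in 100% of cases among lists of wild-type or *Dhx9* KO cells and in 1.85% to 4.29% between these and the *Uhrf1* KO lists. Lists hold no reads outside peaks. No library was a copy of another.

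The first exon of each gene came from the deposited annotation (mm10 with the reporter inserted in chromosome 2, which was left out of the shares over all genes). Each of the 58 genes has 1 transcript there. Sequence features came from the RefSeq GRCm38 genome. Peaks of 4 libraries that overlap or touch were merged, and ChIP reads of regions called in all 4 and covered over at least 80% in each were compared with edgeR 4.0.16 under R 4.3.3 (TMM on counts scaled to called length, length offset, quasi-likelihood test, false discovery rate of 0.05 after Benjamini-Hochberg adjustment), with DESeq2 1.42.0 as an alternative. Called length was tested by a two-sided exact permutation test in scipy 1.17.1. The edgeR script was tested on simulated data. The members and lists were chosen with earlier results of these data known, the scaling of counts was settled with the counts in view, and the ordering of log2 folds was added after the values were seen. Named are the C-type genes, the ends of each cluster, per cluster the 3 genes with the highest wild-type log2 fold and up to 5 lost or gained genes, neighbours, and called genes of 4 lists (non-clustered protocadherins, factors acting on these promoters or in silencing, pluripotency genes, and the 2 targeted genes). Alternatives were stricter peak filters, equal numbers of peaks, other overlap rules, other count settings, a replicate block and leaving out each library.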

Additional observations from a re-analysis of the deposited data

How the results depend on the processing

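The number of lost genes in *Uhrf1* KO cells was 18 instead of 28 with peaks at a false discovery rate of at most 1e-10, with a log2 fold of at least 1 and with an equal number of peaks per list, or 72%, 69.2% and 66.7% of the genes then called in both wild-type libraries, against 41.6%, 36.3% and 30.4% of all genes. Without each library in turn it ranged from 28 to 33, and from 36.6% to 70.7% of all genes. In *Dhx9* KO cells it was 12 and 11 instead of 7 under the first 2 of these filters (48% and 42.3%, against 16.6% and 20.6% of all genes). With equal numbers of peaks it was 10 (37.0% against 15.8%), and with 2 kb on each side of the first exon 4 (9.52% against 6.84%). Without each library it ranged from 8 to 25, and from 17.3% to 30.2% of all genes. At 1e-10, alpha, beta and gamma losses were 7, 1 and 10 in *Uhrf1* KO and 5, 1 and 6 in *Dhx9* KO cells. With a log2 fold of at least 1 they were 5, 2 and 11, and 4, 2 and 5, in the same order. With equal numbers of peaks they were 5, 3 and 10, and 3, 3 and 4. Under these filters in turn, 25, 26 and 27 genes over all clusters were called in both wild-type libraries, and they were not counted by cluster. The number gained stayed 0 in *Uhrf1* KO cells and ranged from 0 to 1 in *Dhx9* KO cells without each library. The shares of all genes gained without each library were 1.01% to 3.05% and 2.25% to 5.34% in the same order. As a percentage of wild-type, called length in *Uhrf1* KO cells moved in alpha to 70.3% at 1e-10, in beta to 50% at 1e-10, 59.1% with log2 fold of at least 1 and 59.9% with equal numbers, and in gamma to 0% with log2 fold of at least 1. In *Dhx9* KO alpha it moved to 81.9% at 1e-10 and 82.3% with log2 fold of at least 1, and turned to 103% without wild-type replicate 1 and 108% without *Dhx9* KO replicate 1. Without each library the ranges in alpha, beta and gamma were 82.7% to 90.7%, 24.9% to 46.0% and 4.10% to 20.1% in *Uhrf1* KO cells, and 90.2% to 108%, 44.9% to 64.3% and 23.0% to 81.1% in *Dhx9* KO cells.

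Over all tested regions, 140 had lower and 81 higher counts in *Uhrf1* KO cells. DESeq2 gave 82 and 29, equal library sizes 0 and 0 (5 and 0 at an unadjusted p under 0.05), all regions called in every library 0 and 0 (2217 and 2781 at an unadjusted p under 0.05), all 6 libraries in 1 fit 42 and 9, and no length offset 134 higher; without each library the counts ranged from 49 to 200 lower and 4 to 156 higher. In *Dhx9* KO cells 26 were lower and 2 higher; equal library sizes gave 9 lower, no length offset 12, all regions 2 lower and 0 higher, all 6 libraries 7 lower, and cover over at least 50% 1 higher, with 7 to 502 lower and 2 to 232 higher without each library. The replicate block gave 64 lower and 16 higher in *Dhx9* KO cells and 141 and 71 in *Uhrf1* KO cells, and called the same regions of the locus; same-numbered libraries showed no pairing (correlations of deviations 0.064 and -0.070). The *Gm36858* region had a log2 change of 0.050 in *Uhrf1* KO cells with all regions, the cause of which was not tested, as for the other changes here. Restricting the annotation to curated transcripts changed no count of lost or gained clustered protocadherins, and the filter on low counts removed 0 regions. With curated transcripts the shares of all genes lost were 35.0% in *Uhrf1* KO and 12.1% in *Dhx9* KO cells. Peaks near the calling threshold, 2 libraries per genotype and the absence of reads outside peaks limit all counts of lost genes.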
